A study of Rattus norvegicus with 15 samples.

Results

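Cholesterol synthesis was followed through 8 genes in the mammary gland of rats that had been pregnant, had carried hormone capsules or had had neither. Of the 8 genes, 7 encode enzymes of the pathway (Hmgcs1, Idi1, Fdps, Fdft1, Sqle, Lss and Dhcr7) and Insig1 encodes a membrane protein that governs it, so none of them is itself a receptor for cholesterol uptake. They were taken by gene symbol from the deposited expression table, where they are 8 of 14238 named genes and 11 of 31042 probe sets. Fdps, Fdft1 and Lss have 2 probe sets each, and the probe set with the highest mean over the 15 arrays leads for each gene.

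RNA came from the left inguinal gland of Lewis females that were virgin and 3 months old when the study began. There were 5 rats in each of 3 groups, and each rat gave 1 Affymetrix array. The control group had implants of cellulose alone. The pregnancy group had these sham implants as well and went to term (21 to 23 days), and the litters were euthanized 4 to 6 hours after birth, so that the dams did not nurse. The hormone group had 2 silastic implants on the back over 21 days, 1 holding ethynyl estradiol (100 µg), a synthetic estrogen, and 1 megesterol acetate (30 mg), which acts like progesterone. A rest of roughly 49 days followed in every group before the glands were taken, always at metestrus, so the arrays show the tissue long after the exposure. The samples are pieces of whole tissue, in which fewer cells of a type and less RNA per cell cannot be told apart. Markers of luminal epithelium, milk genes and adipocytes had a present call on every array, while those of skeletal muscle and lymph node ranged widely between rats. The muscle list spanned −2.21 to 3.83 in mean log2 level relative to the 15 arrays, and the lymph node list −1.50 to 2.56, with its highest levels on control 1, 4 and 5 and pregnancy 3.

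Cells make cholesterol from acetyl-CoA. The early enzymes build isoprenoid units by way of mevalonate, the middle ones join these into squalene, and the late ones close the rings and finish the sterol. When membranes run low in sterol, the protein SCAP carries the transcription factor SREBP-2 (gene Srebf2) to the Golgi for cleavage, and the freed factor turns on nearly every gene of the pathway. Insig1 holds SCAP back in the endoplasmic reticulum when sterol is plentiful and is itself a target of SREBP, which closes a feedback loop. In the lactating gland the pathway feeds the membranes of milk fat globules, and in skin the sebaceous gland is a strong site of sterol and wax synthesis.

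Promoter sequence was available for 6 of the 8 genes, from RefSeq on rat build GRCr8, as windows of 250 bases before and 50 after the annotated start. The windows are shown because SREBP acts on these promoters together with NF-Y, which binds CCAAT boxes, and Sp1, which binds GC boxes. Capitals mark CCAAT on either strand (read as ATTGG where it lies on the opposite strand) and, in Insig1, the core CACNCCAC of the sterol regulatory element (read as GTGGCGTG). Idi1 at chr17:66547475-66547774 (minus strand), the gene of the 8 whose level varied most between arrays, has CCAAT boxes 66 and 35 bases before the start. Hmgcs1 at chr2:53382054-53382353 (plus strand) has them 188 and 133 bases before it. Insig1 at chr4:8057720-8058019 (minus strand) has 1 CCAAT box, 193 bases before the start, and the only matches to the sterol core, 231 bases before the start and 13 bases after it. Dhcr7 at chr1:208444184-208444483 (plus strand) has no CCAAT box.
Idi1: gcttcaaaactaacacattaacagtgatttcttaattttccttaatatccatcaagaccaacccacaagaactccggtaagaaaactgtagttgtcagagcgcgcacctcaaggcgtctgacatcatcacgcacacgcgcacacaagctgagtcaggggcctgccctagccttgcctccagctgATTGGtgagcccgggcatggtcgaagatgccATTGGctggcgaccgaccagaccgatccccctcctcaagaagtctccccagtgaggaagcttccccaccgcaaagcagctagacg
Hmgcs1: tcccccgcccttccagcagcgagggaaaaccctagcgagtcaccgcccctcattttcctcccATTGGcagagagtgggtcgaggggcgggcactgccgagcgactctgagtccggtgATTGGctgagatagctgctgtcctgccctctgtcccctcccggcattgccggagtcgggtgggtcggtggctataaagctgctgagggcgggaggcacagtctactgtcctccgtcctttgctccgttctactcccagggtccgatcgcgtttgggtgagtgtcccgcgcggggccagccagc
Insig1: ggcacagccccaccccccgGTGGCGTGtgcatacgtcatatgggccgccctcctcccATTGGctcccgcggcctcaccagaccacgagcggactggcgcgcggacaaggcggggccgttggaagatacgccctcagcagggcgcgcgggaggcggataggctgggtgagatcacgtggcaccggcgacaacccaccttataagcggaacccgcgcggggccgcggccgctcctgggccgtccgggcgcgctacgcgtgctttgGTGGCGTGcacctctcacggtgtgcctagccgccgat
Dhcr7: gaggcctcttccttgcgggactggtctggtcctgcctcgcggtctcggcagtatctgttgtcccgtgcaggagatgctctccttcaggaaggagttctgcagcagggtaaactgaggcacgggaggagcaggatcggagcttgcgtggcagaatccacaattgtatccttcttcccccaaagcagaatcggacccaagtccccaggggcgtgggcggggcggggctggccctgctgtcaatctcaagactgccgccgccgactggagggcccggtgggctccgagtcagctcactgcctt

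Of the remaining windows, that of Fdps (chr2:176804767-176805066, minus strand) has CCAAT boxes 130 and 85 bases before the start and that of Lss (chr20:12118181-12118480, minus strand) has 1, 82 bases before it. Each is shown with the bases around it, since in both genes the box lies within the last 130 bases.
Fdps, 130 bases before the start: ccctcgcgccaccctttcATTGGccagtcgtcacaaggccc
Fdps, 85 bases before the start: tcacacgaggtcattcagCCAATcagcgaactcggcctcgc
Lss, 82 bases before the start: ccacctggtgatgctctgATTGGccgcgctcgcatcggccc

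**Figure D1:**
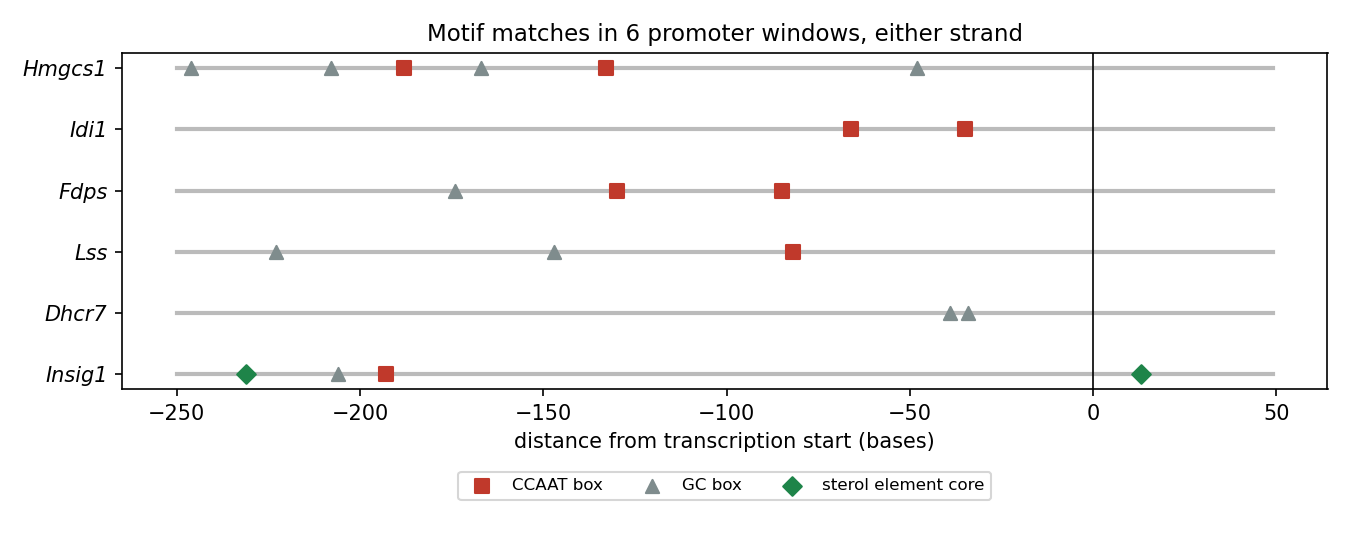
Positions of motif matches on either strand of the 6 promoter windows, in bases from the annotated transcription start (vertical line). Squares mark CCAAT boxes, triangles GC boxes and diamonds the sterol element core. CCAAT boxes lie in 5 windows, and the sterol core was matched in the Insig1 window at −231 and 13.

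Both strands were searched for 4 motifs. CCAAT occurred in 5 of the 6 windows, against 37.5% of 33465 rat promoter windows of the same length, and the GC box GGGCGG also in 5 of the 6 (Idi1 lacks it), against 33.1%. The core CACNCCAC occurred in 1 of 6, against 5.80%, and the longer form TCACNCCAC, which contains the core, in 0 of 6, against 1.12%. A match is a run of letters and not a measured site, and the absence of these letters from 300 bases says nothing about binding.

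Of the 15 arrays, 1 stood apart for these genes. On the array of pregnancy replicate 9, 6 of the 8 genes had their highest level of all 15 arrays, and Idi1 was 15.7-fold above the mean of the other 14. Over all probe sets, 8.24% were highest on that array. It carried 12 of the 38 other genes of cholesterol handling that were measured at their highest level too, 10 of these in synthesis. Because 1 rat held so much of the spread, the pregnancy differences of the 8 genes from control are given with and without it, and it was kept in the main results.

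**Figure D2:**
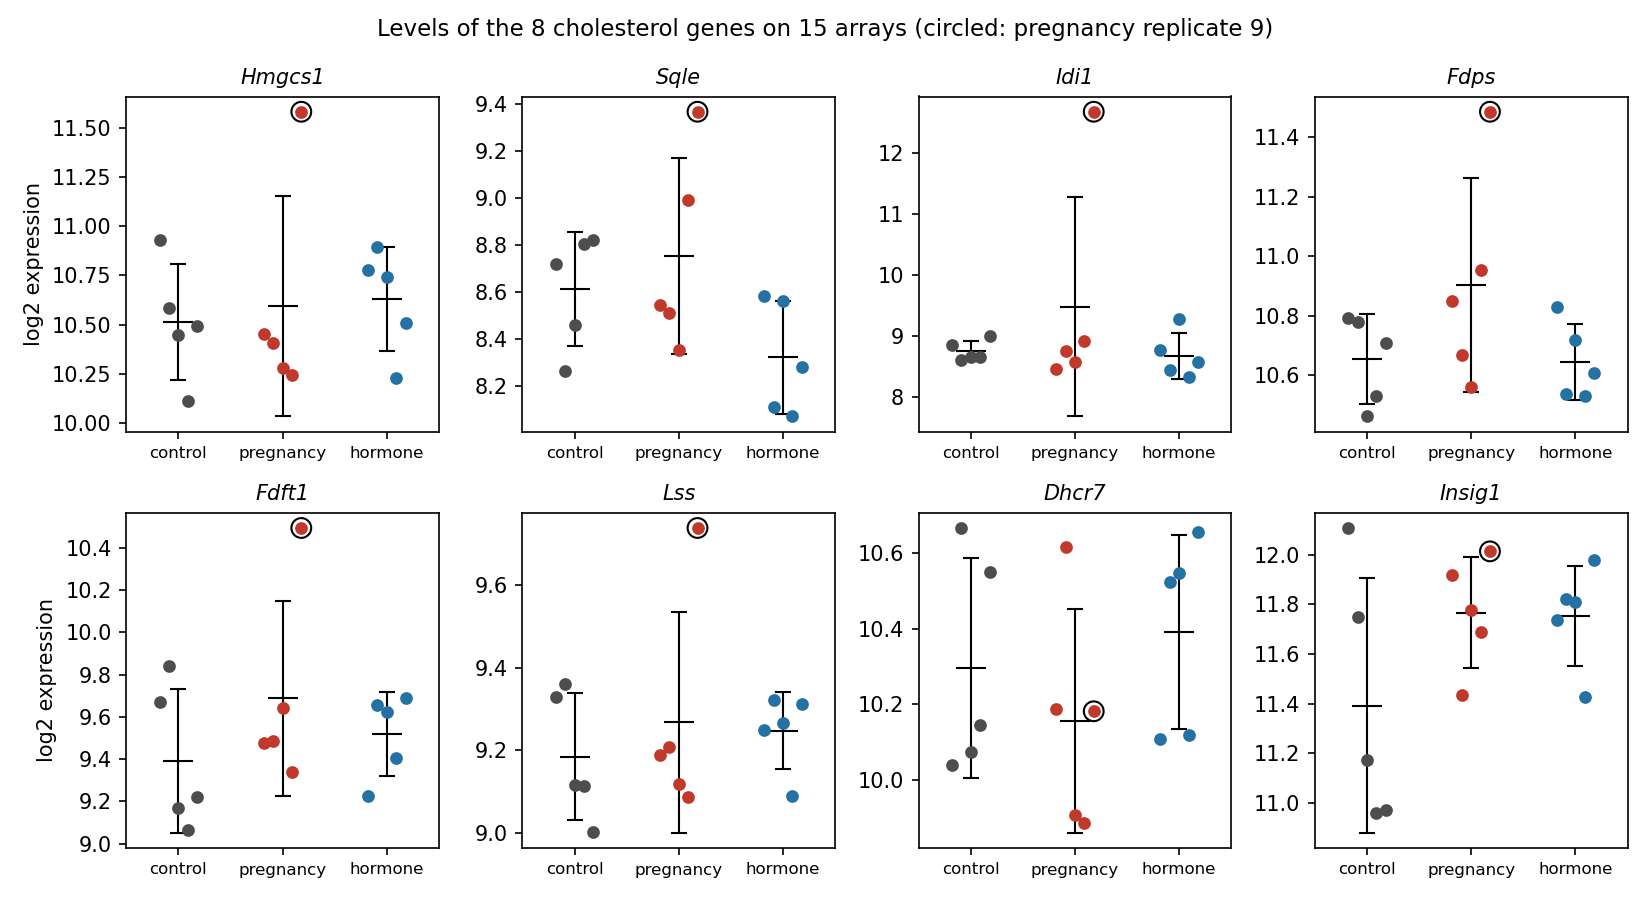
Log2 expression (vertical axis) of the 8 genes on each of 15 arrays, by group, with the group mean and SD (bars, n = 5). The circled point is pregnancy replicate 9, which stands above all other arrays for Hmgcs1, Sqle, Idi1, Fdps, Fdft1 and Lss, with Idi1 at 12.7, and lies within the others for Dhcr7 and Insig1.

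The first enzyme of the set, Hmgcs1, makes HMG-CoA, the precursor of mevalonate. Its log2 level was 10.93, 10.58, 10.45, 10.11 and 10.49 in control replicates 1, 2, 4, 5 and 6. Pregnancy replicates 1, 2, 3, 7 and 9 gave 10.45, 10.40, 10.28, 10.24 and 11.58, and hormone replicates 1 to 5 gave 10.78, 10.90, 10.74, 10.23 and 10.51. The groups overlapped, and apart from replicate 9 every pregnancy rat lay inside the control range. The pregnancy mean exceeded the control mean by 0.08 ± 0.23 (SE of limma's moderated fit, n = 5 per group; adjusted p = 0.860), and without replicate 9 it was 0.17 below it, at a difference of −0.17 ± 0.15.

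Idi1 interconverts isopentenyl and dimethylallyl diphosphate, the 2 building blocks of all isoprenoids. In controls it read 8.85, 8.61, 8.65, 8.65 and 8.99, in replicate order as above. Under hormone it read 8.77, 8.43, 9.27, 8.32 and 8.56. After pregnancy it read 8.46, 8.75, 8.57, 8.91 and then 12.68 in replicate 9. That array alone held 88.4% of the sum of squares of Idi1 over the 15 arrays, and among named genes Idi1 ranked 12 by its excess there. The pregnancy group was 0.72 ± 0.61 above control (adjusted p = 0.496), with a 95% interval of −0.58 to 2.03. Without replicate 9 the difference was −0.08 ± 0.17, and the SD of the pregnancy group went from 1.80 to 0.20, close to that of controls at 0.17.

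Fdps joins these units into farnesyl diphosphate, the last intermediate shared with protein prenylation. Controls read 10.79, 10.78, 10.46, 10.53 and 10.71, pregnancy rats 10.85, 10.67, 10.56, 10.95 and 11.49, and hormone rats 10.83, 10.54, 10.72, 10.53 and 10.61. Replicate 9 was highest, 1.75-fold above the mean of the other 14 arrays, and replicate 7 was next. The difference of pregnancy from control was 0.25 ± 0.14 (adjusted p = 0.307) and fell to 0.10 ± 0.10 without replicate 9. The second Fdps probe set ranged only from 8.24 to 8.55 and was not highest on replicate 9 (8.48), so the 2 probe sets disagreed on that array.

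Fdft1, squalene synthase, commits carbon to sterols. It read 9.67, 9.84, 9.17, 9.06 and 9.22 in controls, 9.48, 9.49, 9.64, 9.34 and 10.49 after pregnancy, and 9.23, 9.65, 9.63, 9.41 and 9.69 after hormone. Controls 1 and 2 stood above controls 4, 5 and 6, and pregnancy replicate 9 stood above them all at 2.04-fold the mean of the other 14 arrays. Here the second probe set moved the same way, with 9.67 on replicate 9 against 8.16 to 8.57 elsewhere, a 2.51-fold excess. Pregnancy differed from control by 0.29 ± 0.20 (adjusted p = 0.405), and by 0.09 ± 0.15 without replicate 9.

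Sqle, squalene epoxidase, carries out the first oxygen-dependent step and is counted among the rate-limiting steps. Control levels were 8.72, 8.26, 8.46, 8.80 and 8.82, pregnancy levels 8.55, 8.51, 8.36, 8.99 and 9.37, and hormone levels 8.58, 8.11, 8.56, 8.07 and 8.28. The 2 lowest arrays were hormone rats 4 and 2 and the 2 highest were pregnancy rats 9 and 7, and hormone rats 1 and 3 overlapped both other groups. Its difference of 0.43 ± 0.18 between pregnancy and hormone was the only one of the 24 (8 genes in 3 comparisons) with an unadjusted p under 0.05 in limma, and it did not pass after adjustment (adjusted p = 0.471). Without replicate 9 it was 0.28 ± 0.16. Hormone minus control was −0.29 ± 0.18 (adjusted p = 0.362). Pregnancy minus control was 0.14 ± 0.18 (adjusted p = 0.668), and −0.01 ± 0.16 without replicate 9.

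Lss closes squalene epoxide into lanosterol, the first sterol. Its leading probe set read 9.33, 9.36, 9.12, 9.11 and 9.001 in controls, 9.19, 9.21, 9.12, 9.09 and 9.74 after pregnancy, and 9.25, 9.32, 9.27, 9.09 and 9.31 after hormone. The 14 arrays other than replicate 9 spanned 9.001 to 9.36, the narrowest range of the 8 genes. Pregnancy differed from control by 0.08 ± 0.11 (adjusted p = 0.679), and by −0.03 ± 0.08 without that array. The second Lss probe set had its only present call on replicate 9, at 9.35, so no size is given for its change.

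Dhcr7, which reduces 7-dehydrocholesterol in the last step of 1 branch of the pathway, did not share the peak. Its levels were 10.04, 10.67, 10.07, 10.15 and 10.55 in controls, 10.19, 10.62, 9.91, 9.89 and 10.18 after pregnancy, and 10.11, 10.52, 10.55, 10.12 and 10.66 after hormone. In each group 1 to 3 rats read from 10.52 to 10.67 and the others from 9.89 to 10.19, and replicate 9 was among the latter. The pregnancy difference from control was −0.14 ± 0.16 (adjusted p = 0.637), and −0.15 ± 0.18 without replicate 9.

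Insig1, the feedback regulator, was not highest on replicate 9 either, and its spread lay among the controls. These read 12.11 and 11.75 in replicates 1 and 2 but 11.18, 10.96 and 10.97 in replicates 4, 5 and 6. Pregnancy rats read 11.92, 11.43, 11.78, 11.69 and 12.01, and hormone rats 11.74, 11.82, 11.81, 11.43 and 11.98, all within the control range. The control SD of 0.51 exceeded those of pregnancy (0.22) and hormone (0.20). Pregnancy was 0.37 ± 0.20 above control (adjusted p = 0.280), or 0.31 ± 0.21 without replicate 9, and hormone 0.36 ± 0.20 above it (adjusted p = 0.306), neither past the threshold. On controls 4, 5 and 6 the fatty acid synthesis list stood at −0.57, −0.43 and −0.47 and the adipocyte list at −0.32, −0.34 and −0.61, against −0.08 to 0.12 for both lists on controls 1 and 2. With the adipocyte list as a covariate the Insig1 differences were 0.09 for pregnancy (adjusted p = 0.843) and 0.05 for hormone (adjusted p = 0.927). The adipocyte list itself ranged from −0.61 to 0.11 in controls, −0.13 to 0.27 after pregnancy and −0.05 to 0.49 after hormone. Fat content and exposure thus cannot be fully told apart, and the part of fat in the Insig1 levels was not tested.

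Over the set, 0 of 8 genes passed an adjusted p of 0.05 in any of the 3 comparisons (limma, Benjamini-Hochberg over 31042 probe sets). The background was low: 0.197% of probe sets passed for pregnancy minus control, 0.0290% for hormone minus control and 0.00322% for pregnancy minus hormone, so a count of 0 among 8 is near the background. At an unadjusted p under 0.05 the counts were 0, 0 and 1 of 8, while 21.9%, 20.7% and 9.96% of all probe sets stood below it. After pregnancy 7 of 8 genes lay above control, with a median difference of 0.19 and adjusted p from 0.280 to 0.860, while the median over all probe sets was 0.02 and 54.7% of them lay above. Without replicate 9 the count was 3 of 8 and the median −0.02, at adjusted p from 0.476 to 0.977. With the adipocyte list as a covariate the median was 0.05, and the median hormone difference −0.13. After hormone 5 of 8 lay above control, with a median of 0.08 against 0.03 for all probe sets, 58.0% of which lay above. Pregnancy minus hormone had 6 of 8 above, with a median of 0.09, and −0.04 without replicate 9. The comparisons with control share the same control arrays. In the authors' deposited table none of the 11 probe sets had an adjusted p under 0.05 either, the lowest being 0.118 for the second Lss probe set in pregnancy minus control.

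**Figure D3:**
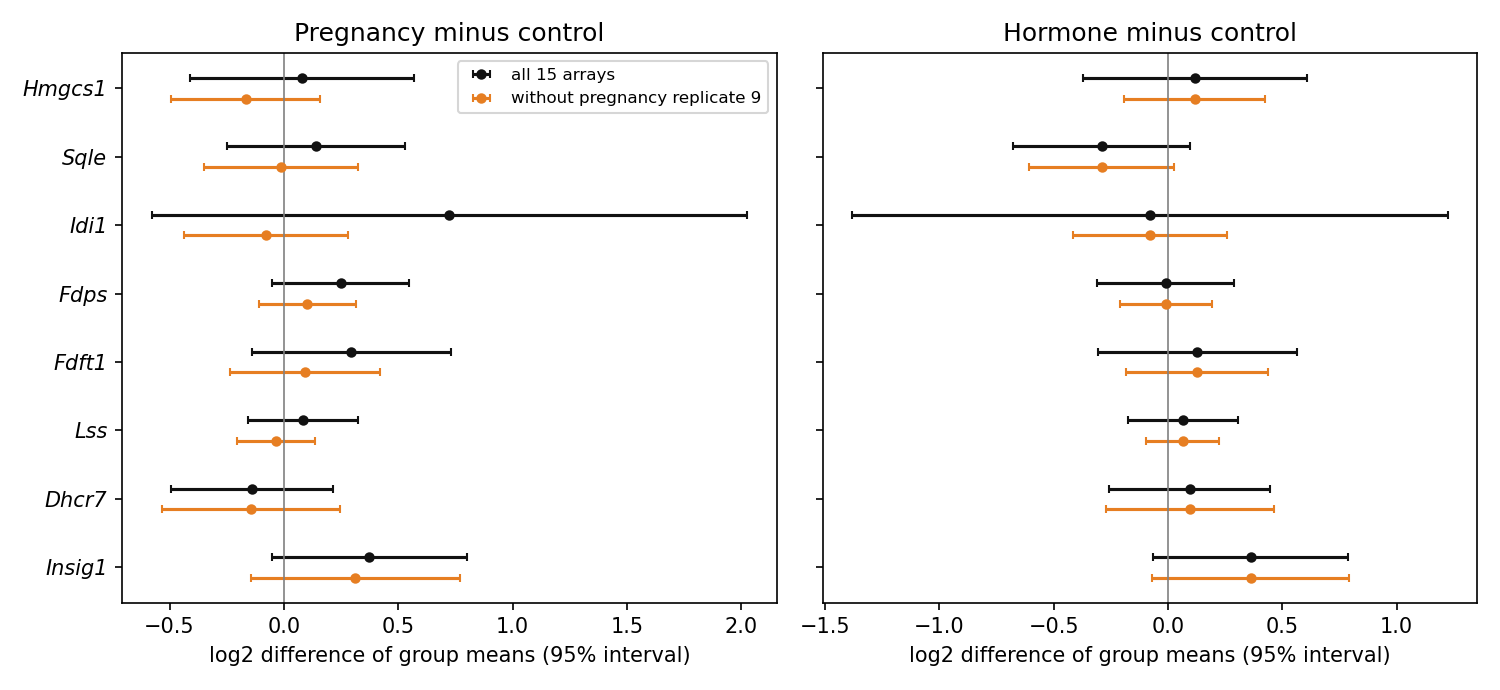
Log2 differences of group means with 95% intervals for the 8 genes, pregnancy minus control and hormone minus control, from all 15 arrays (black) and without pregnancy replicate 9 (orange). The intervals of Hmgcs1, Sqle, Idi1, Fdps, Fdft1 and Lss narrow in both comparisons without that array, because the 3 groups share an estimate of the spread. The Idi1 estimate after pregnancy moves from 0.72 to −0.08.

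The weight of pregnancy replicate 9 was then measured across the pathway. Beside Idi1 (15.7-fold), its excess over the mean of the other 14 arrays was 2.11-fold for Hmgcs1, 2.04-fold for Fdft1, 1.82-fold for Sqle, 1.75-fold for Fdps and 1.46-fold for Lss. It held 52.7%, 54.3%, 39.1%, 63.4% and 58.5% of those genes' sums of squares. The mean of the 8 genes, each relative to its own mean, was 1.002 on that array and −0.29 to 0.13 on the others. The 2 remaining members peaked elsewhere, Insig1 on control 1 and Dhcr7 on control 2. Limma's array weights, which reflect the spread over all probe sets, gave this array 1.01, where the 15 arrays ranged from 0.489 to 1.45. The share of probe sets with a present call was 67.6% there and 65.3 to 68.4% over all arrays. Both measures cover all probe sets, and the part of array quality in the levels of these genes was not tested.

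Enzymes outside the set followed it on that array: 10 of 14 synthesis genes were highest there. Among these were Cyp51, Ebp, Sc5d, Msmo1 and Nsdhl, which turn lanosterol into later sterols, and Mvk, Mvd and Pmvk of the mevalonate steps, with log2 excesses from 0.65 for Cyp51 down to 0.21 for Nsdhl. Acat2, Ggps1, Tm7sf2 and Hsd17b7 were not highest there. Of the uptake genes, 1 of 10 was highest on replicate 9 (Npc2). Of the 8 regulators 0 were highest there, Srebf2 among them at 10.18 within 9.52 to 10.67. In efflux and storage 1 of 6 was, Soat1, which esterifies cholesterol for storage, at 10.26 against 8.26 to 8.73.

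**Figure D4:**
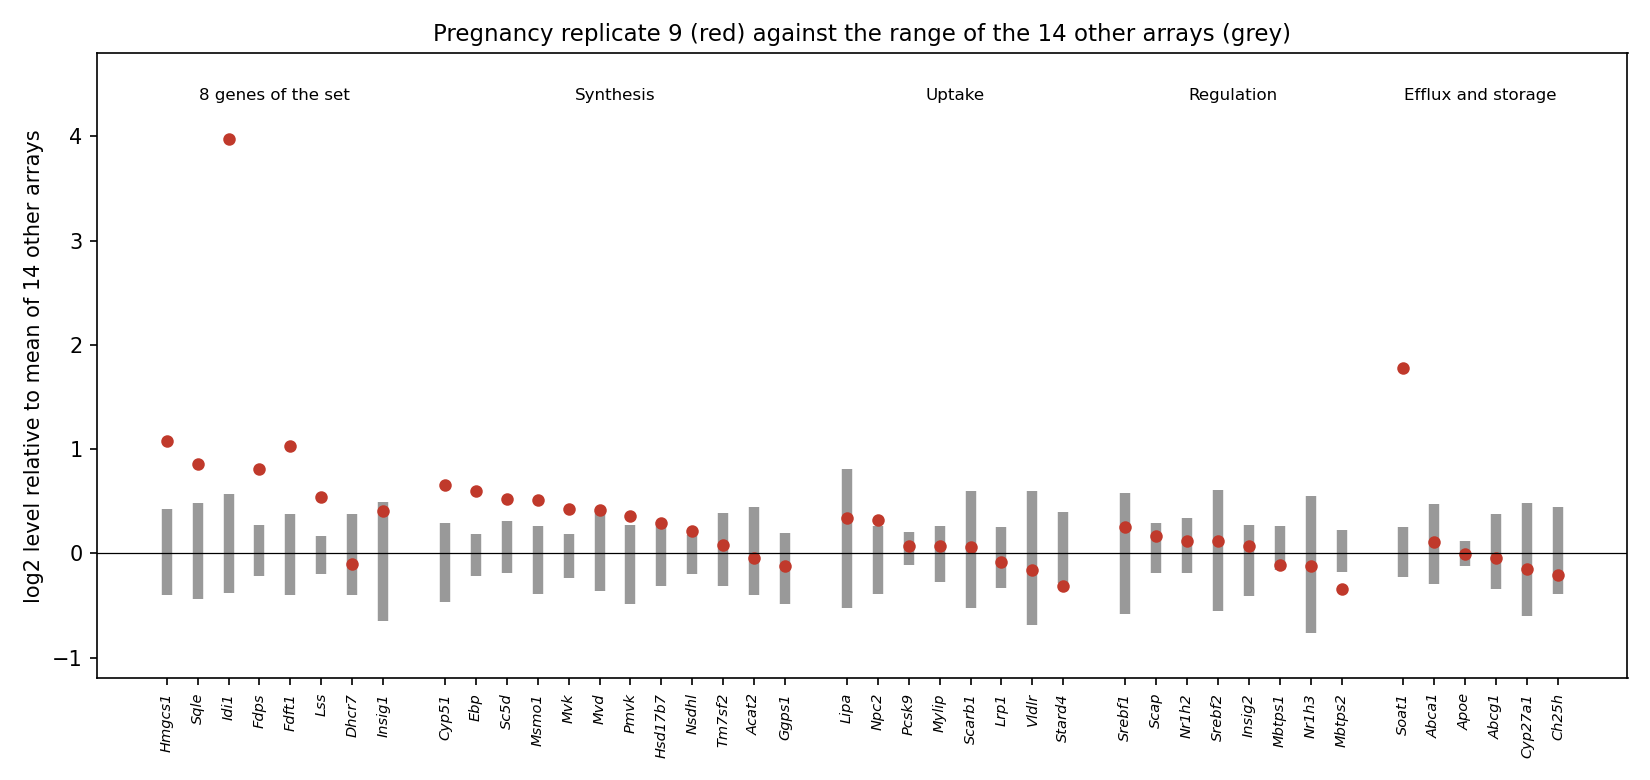
Log2 level of pregnancy replicate 9 (red points) relative to the mean of the other 14 arrays (0), with the range of those 14 as grey bars, for the 8 genes and 34 others in 4 groups by role. Idi1 at 3.98 and Soat1 at 1.78 lie farthest above their ranges, and the uptake and regulation genes lie within or near theirs.

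Several marker lists stood high on the same array. All 4 measured sebaceous gland markers were highest there, with a list mean of 0.93 against −0.22 to 0.06 on the other arrays. They were Soat1, which is also counted above, Fa2h and Elovl3, which make the lipids of sebum, and Mc5r, a receptor of that gland whose probe set was called present on no array. Elovl3 was called present on 3 of 15 arrays and Fa2h on 1, and replicate 9 was among these for both. On most other arrays the levels of Elovl3, Fa2h and Mc5r were thus not told from background. All 8 fatty acid synthesis genes were highest there too, at 0.88 against −0.57 to 0.37, with Elovl6 1.605 and Acaca 1.15 above the other arrays. Of 5 measured keratinocyte markers 2 were highest there, Sprr1a at 10.51 against 6.08 to 8.16 and Dsg1 at 8.10 against 5.47 to 6.20, with present calls on 3 and 1 of the 15 arrays, while Krt10 and Krt15 were low, at −0.87 and −1.19, and Krt1 was called absent. Skeletal muscle markers were high on replicate 9 at 2.59, and also on pregnancy replicate 7 at 2.24 and hormone replicate 4 at 3.83, where the 8 cholesterol genes had means of −0.05 and −0.29. The luminal epithelium list was at −0.04 and the adipocyte list at 0.26 on replicate 9, within the other arrays. The circadian clock list was at its highest there too, at 0.28 against −0.83 to 0.19 on the other arrays. Of its 6 genes 3 were highest there (Dbp, Per1 and Nr1d1). So was the brown fat list, at 0.16 against −0.20 to 0.12, with 1 of 4 genes highest and 2 of 4 called present on any array. The parts of skin glands, muscle and the clock in the cholesterol gene levels of that array were not tested.

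**Figure D5:**
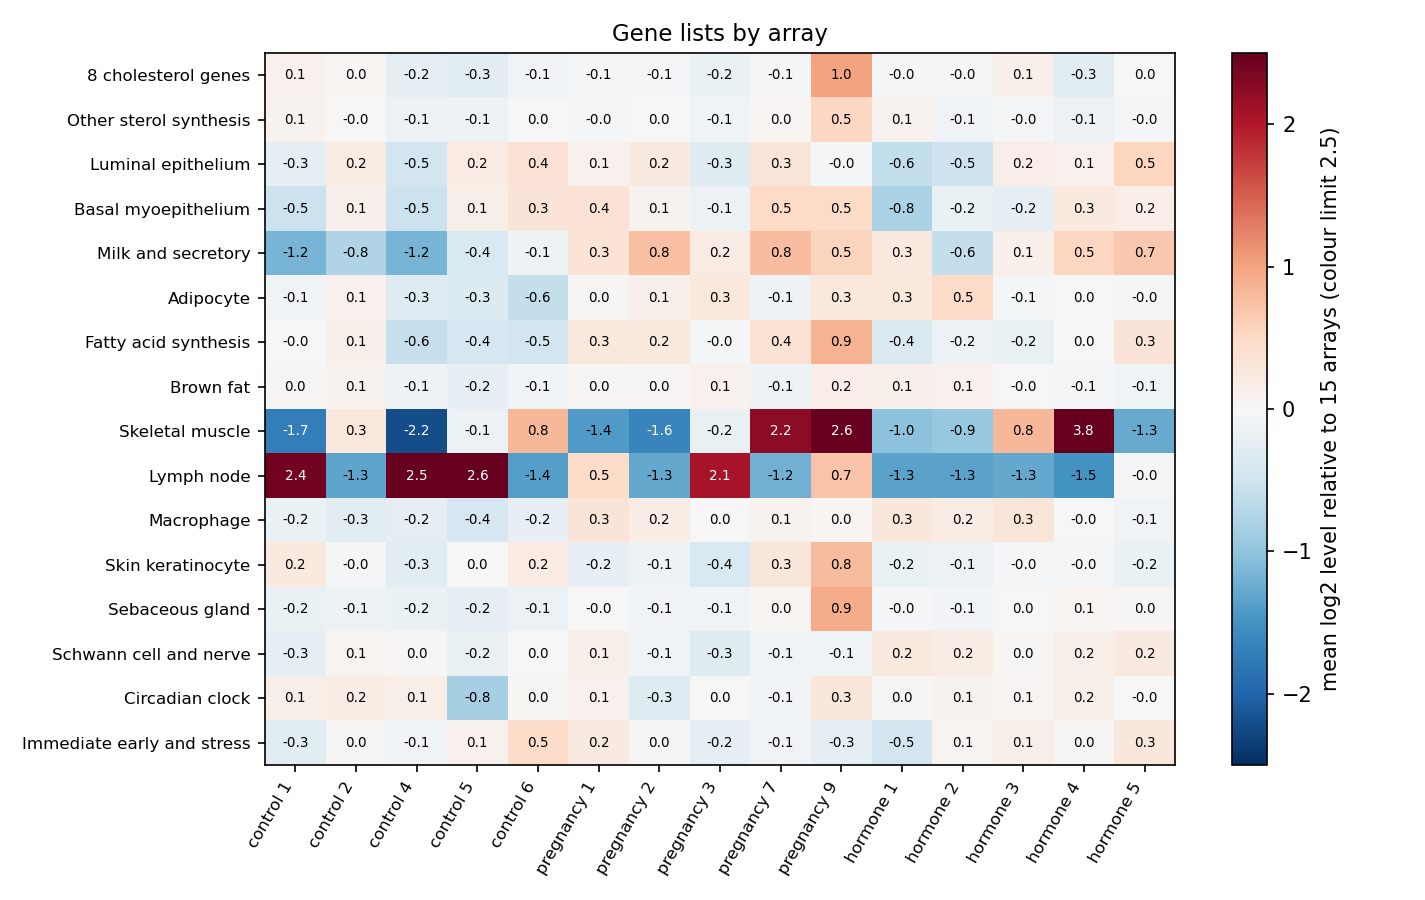
Mean log2 level of each gene list on each array relative to the 15 arrays (colour, limited at 2.5, and printed value). The column of pregnancy replicate 9 is high in the 8 cholesterol genes (1.002), fatty acid synthesis (0.88), sebaceous gland (0.93) and skin keratinocyte (0.80) lists, while skeletal muscle is also high on 2 other arrays. The circadian clock (0.28) and brown fat (0.16) lists are at their highest there as well.

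Some further genes were far higher on replicate 9 and were chosen after their values were seen. They are a selection: skeletal muscle genes were also among those with the largest excess there, though each read higher still on another array. Krtdap, a protein of differentiating keratinocytes, read 10.95 there against 4.99 to 5.58 on the other arrays, none of which called it present. Elovl4, which elongates very long fatty acids and is active in skin, was called present on all arrays and was 40.5-fold above the mean of the others. Fads2b read 10.09 against 4.42 to 5.53, with a present call on 1 of the other 14 arrays, and S100a8, a calcium-binding protein of inflamed skin and neutrophils, 9.65 against 5.24 to 5.89, with 4. A probe set named Mup5, of the major urinary protein family, read 13.56 against 3.64 to 9.95, with 5. Members of that family are near-identical, so which gene it read is uncertain.

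How the 8 genes varied together also turned on that array. Over 15 arrays the 28 pairs had a median Pearson correlation of 0.61, from −0.31 to 0.89, with 15 pairs above 0.5. Over the 14 others the median was 0.24, from −0.51 to 0.77, with 7 pairs above 0.5. Fdft1 with Lss was the highest pair over 15 arrays (0.89) and stayed at 0.73 over 14, and Fdft1 with Insig1 was the highest over 14, at 0.77. Sqle ran opposite to Fdft1 over those 14 (−0.51) and had the 4 lowest correlations, with Fdft1, Lss, Dhcr7 and Insig1. The points share the amount of fat, muscle and lymph node in each piece of tissue, and these correlations describe the arrays and were not tested.

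All genes outside the 8, the other pathway genes included, were ranked by the likeness of their profile to the mean of the 8. Over 15 arrays and 14225 genes the 10 most alike were Ly6g6c (r = 0.945), Tmem45a2 (0.936), Hsd17b2 (0.935), Gusb (0.935), Prxl2a (0.933), Ivd (0.933), Slc15a1 (0.929), S100a8 (0.923), Elovl4 (0.923) and Hsd3b2 (0.917). The mean of the 8 peaked on replicate 9, so genes picked for likeness to it were nearly bound to be higher there. All 10 were higher on replicate 9 than on the mean of the others, which is thus no separate result. Over the 14 other arrays the 10 most alike included Kcne5 (0.884), Mmgt1 (0.813), Micall2, Mccc1, Manba, RGD1564209, Arhgap21 and Ppp2r1b (0.784), and 0 of 10 were shared between the lists.

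Among the 38 other genes of cholesterol handling, 2 passed the test after pregnancy, both of the lysosomal end of uptake. None passed after hormone or between pregnancy and hormone. Over all probe sets 0.197%, 0.029% and 0.00322% passed in these 3 comparisons. At an unadjusted p under 0.05 the counts were 12, 10 and 8 of 38, where the same held for 21.9%, 20.7% and 9.96% of all probe sets. Npc2 carries cholesterol out of the lysosome. It read 12.67 to 13.03 in controls, 13.15 to 13.37 after pregnancy and 13.02 to 13.23 after hormone. The difference was 0.43 ± 0.07 (adjusted p = 0.0382 by limma). Lipa, the acid lipase that frees cholesterol from the esters taken up with lipoproteins, read 9.79 to 10.17 in controls, 10.41 to 11.13 after pregnancy and 9.97 to 10.71 after hormone. Its difference was 0.74 ± 0.14 (adjusted p = 0.0496 by limma). Without replicate 9 the differences were 0.40 and 0.75, at adjusted p of 0.108 and 0.133.

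These calls lay close to the threshold and passed it in 12 (Npc2) and 10 (Lipa) of 25 alternatives, with adjusted p from 0.0197 to 0.377 and from 0.0181 to 0.368. Of the alternatives passed, 2 left the values of both genes unchanged, namely the second deposited table and the mean of a gene's probe sets. Both were lost with the 2 groups fitted alone, with muscle as a covariate and with the replicate number as a block. Npc2 was lost with adipocytes as a covariate, and Lipa with arrays centred on their median or with probe sets never called present left out. Leaving out certain other arrays also ended them, at differences of 0.41 to 0.43 for Npc2 and 0.63 to 0.79 for Lipa. For Npc2 the adjusted p was 0.0990 without control 1, 0.121 without control 4, 0.0778, 0.0530 and 0.117 without pregnancy 1, 2 and 7, and 0.0558, 0.0501 and 0.0565 without hormone 1, 3 and 4. For Lipa it was 0.153, 0.134 and 0.0528 without control 1, 4 and 6, 0.0789, 0.0688 and 0.120 without pregnancy 1, 2 and 7, and 0.0652, 0.0568 and 0.0745 without hormone 1, 3 and 4. Macrophages are rich in both products, and the macrophage list ranged from −0.43 to −0.16 on control arrays, 0.01 to 0.33 after pregnancy and −0.09 to 0.30 after hormone. Its part in the Npc2 and Lipa levels was not tested.

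By role, 10 of 14 synthesis genes lay above control after pregnancy with a median of 0.12, and 7 of 14 with a median of 0.01 without replicate 9. For uptake it was 7 of 10 with a median of 0.08, and 8 of 10 at 0.08 without replicate 9. Regulation had 4 of 8 (median −0.03) and efflux and storage 3 of 6 (median −0.02), with the same counts and medians of −0.02 for both without replicate 9. After hormone the counts were 8 of 14, 8 of 10, 3 of 8 and 4 of 6, and among the genes with the smallest p were Npc2 at 0.26 ± 0.07 (adjusted p = 0.141) and Srebf2 at −0.42 (adjusted p = 0.163). Between pregnancy and hormone they were the synthesis enzymes Hsd17b7 (adjusted p = 0.342), whose probe set was called present on no array, so that no size is given, and Sc5d at 0.30 (adjusted p = 0.352), and Nr1h3, the liver X receptor alpha that drives cholesterol efflux, at −0.43 (adjusted p = 0.443). Without replicate 9 Sc5d was at 0.23 and Nr1h3 at −0.43. None of these passed.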

How the data were processed

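Total RNA (80 ng per rat) was labelled with NuGEN Ovation V2, per the labels' protocols. Expression is on the log2 scale, as deposited by the authors for each probe set, and the submitters' processing notes name GCOS, RMA, MAS5 and affy with no role or version. The same deposited table gives a detection p-value per probe set and array, with a present, marginal or absent call beside it, and the authors' own fold changes with p-values, whose fit is not given in the sources used here. Values of both deposited tables were equal (largest difference 0). The table holds 15 further per-sample columns, of 5 arrays that match no labelled sample, which were not used. The number of arrays limits the precision.

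Of 31099 probe sets, 57 controls were left out and 31042 tested without a filter. All 15 arrays entered one fit of group means by limma 3.58.1 in R 4.3.3. Its variances were moderated (12 residual and 2.70 prior degrees of freedom), tests were two-sided, and Benjamini-Hochberg adjusted p under 0.05 passed. The code was tested on simulated data. Summaries were made in Python 3.11.15 (pandas 2.3.3, numpy 2.4.6). The 8 genes and all lists were chosen with earlier results of these data known. Named beyond the 8 were the pathway genes that passed, otherwise the 3 with the smallest p per comparison, and the 10 genes most correlated with the mean of the 8. A few genes that these rules name are not reported here. The genes highest on pregnancy replicate 9 were chosen after their values were seen. Npc1 and Nceh1, and the markers Awat2 and Lor, were listed but not measured here. Promoter windows came from RefSeq (GRCr8). No promoter window of Sqle or Fdft1 was used here. Alternatives were array weights, median centring, a present-call filter, the 2 groups of a comparison alone, muscle, lymph node or adipocyte levels as covariates, the replicate number as a block, the second deposited table, the mean of a gene's probe sets and leaving out each array.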

Additional observations from a re-analysis of the deposited data

Results flagged for a closer look

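A gap test was run on 42 groups of 5 arrays (14 genes in 3 groups), asking whether the highest or lowest array lies apart from the rest by more than 0.71 of the group's range, and chance alone sets off about 1 in 20. It singled out 5, of which 4 were pregnancy replicate 9 as the highest of its group. The gap was 0.892 of the range for Idi1 (12.68), 0.843 for Hmgcs1 (11.58), 0.814 for Lss (9.74) and 0.739 for Fdft1 (10.49). These 4 are from 1 array and so are not independent of each other. The genes were chosen, and this array marked for a check, with earlier results of these data known. The flags at this array thus describe it and are no separate support, and the chance rate does not apply to them. Srebf2, which encodes SREBP-2, was lowest on hormone replicate 3 with a gap of 0.768 (9.52).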

How the results depend on the processing

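None of the 8 genes passed the threshold under any of the 25 alternatives for the 18 differences followed through them (all 8 genes against control, and Idi1 and Sqle between pregnancy and hormone), where the lowest adjusted p was 0.171. The count of 6 of 8 genes highest on pregnancy replicate 9 was also 6 with arrays centred on their median and with the mean of a gene's probe sets, both chosen after seeing the data. Directions did change. Pregnancy minus control turned negative with the replicate block for Hmgcs1 (−0.3356), Sqle (−0.1435), Idi1 (−0.3027), Fdps (−0.0258), Fdft1 (−0.0525) and Lss (−0.1164), with the adipocyte covariate for Hmgcs1 (−0.2019) and Lss (−0.0831), and with array weights for Hmgcs1 (−0.0101). With group medians, chosen after seeing the data, it was −0.0901 for Hmgcs1, −0.1766 for Sqle and 0.0359 for Dhcr7. Hormone minus control turned with the adipocyte covariate for Hmgcs1 (−0.1872), Fdft1 (−0.1787) and Lss (−0.1168), with the lymph node covariate for Idi1 (0.0029) and Dhcr7 (−0.1125), and for Fdps with median centring (0.0169), the block (0.0007) and the mean of its probe sets (0.0012). Idi1 between pregnancy and hormone was −0.1978 with the block. Leaving out 1 array gave −0.1677 to 0.1837 for Hmgcs1, −0.0127 to 0.2403 for Sqle, −0.0766 to 0.978 for Idi1 and −0.0342 to 0.1289 for Lss in pregnancy minus control, with the lowest value of each without pregnancy replicate 9. In hormone minus control it gave −0.2288 to 0.01 for Idi1 and −0.0591 to 0.0241 for Fdps. The median of the 8 genes in pregnancy minus control was 0.1948, and 0.0494 with the adipocyte covariate, −0.0844 with the replicate block and 0.0895 with group medians. In hormone minus control it was 0.0794, and −0.1298 with the adipocyte covariate, 0.0482 with array weights, 0.0486 with the lymph node covariate, 0.0297 with the block and 0.1978 with group medians. In pregnancy minus hormone it was 0.0936, and −0.1605 with the block, −0.0538 with group medians and 0.152 with the mean of a gene's probe sets. Insig1 in pregnancy minus control was 0.0038 with the block. The cause of these changes was not tested.

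Counts over all probe sets depended strongly on the setting. For pregnancy minus control 61 became 1154 with array weights, 33 with the present-call filter, 8 with 2 groups alone, 28, 172 and 33 with the muscle, lymph node and adipocyte covariates, 0 with the replicate block, and 3 to 1430 when 1 array was left out (1430 without control replicate 2). For hormone minus control 9 became 1374 with weights, 1 with 2 groups alone, 5, 0 and 1 with the 3 covariates, 0 with the block, and 0 to 1884 when 1 array was left out (1884 without control replicate 2). For pregnancy minus hormone 1 became 4 with weights, 6 with 2 groups alone, 0 with the lymph node or adipocyte covariate or the block, and 0 to 9 when 1 array was left out. Where limma called 0, unadjusted p under 0.05 held for 3740 probe sets in pregnancy minus control, 2962 to 7521 in hormone minus control and 2046 to 3305 in pregnancy minus hormone. Of the 38 pathway genes, the 2 called after pregnancy became 1 with median centring, the present-call filter or the adipocyte covariate, 0 with 2 groups alone, the muscle covariate or the block, and 0 to 3 when 1 array was left out. After hormone 1 passed with array weights, and 0 to 1 when 1 array was left out.

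Same-numbered arrays of different groups correlated from −0.253 to 0.376 in 9 pairs. Differently numbered pairs were not compared, so these values cannot settle whether the replicate numbers pair the rats. With the replicate block, an array whose number occurs once (control 6, pregnancy 7 and pregnancy 9) adds nothing to a difference, so its values rest on fewer rats.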
